A study of Arabidopsis thaliana with 12 samples.

Results

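The tau and phi glutathione transferases (GSTs) of Arabidopsis thaliana roots are described here, taken by name as *GSTU1* to *GSTU28* and *GSTF2* to *GSTF14*. These are 41 genes, 28 of the tau class and 13 of the phi class, of 25872 genes in the table. Of the 41, 39 genes were analysed and 34 passed the filter on low values, 25 tau and 9 phi genes. The levels of *GSTU2* and *GSTF11* were not analysed here. The values come from 12 root RNA-seq libraries in 4 groups of 3. The groups are plants that overexpress *GmNTL4* (OX) and the wild type (WT), each as a control without Al and with Al. *GmNTL4* is a soybean NAC transcription factor of the membrane-tethered type, which the OX plants express from the constitutive 35S promoter. The study selected 2 homozygous OX lines, and the sources used here do not say which was sequenced. All seedlings were kept in a dilute nutrient solution at pH 4.5 with 0.5 mM CaCl2 and without phosphate, and Al was given as 5 µM AlCl3. Al lasted 48 h according to the methods but 24 h in the labels of the samples. Nothing in the sources says that the 3 libraries of a group came from separate cultures, so the p-values below measure only the spread between these libraries, which may be technical.

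GSTs join the tripeptide glutathione to electrophilic compounds, and ABCC transporters then carry many of these conjugates into the vacuole. Tau and phi are the large plant classes, and most of their genes lie in tandem clusters. Many are induced by xenobiotics, oxidized lipids, salicylate or auxin, in part through TGA transcription factors, which bind TGACG motifs. They are known as markers of oxidative stress in roots, Al stress included.

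The libraries held 16162941 to 17136217 fragments on genes. The values are FPKM, which divide each gene's fragments by its transcript length and the library's total, so levels of different genes can be set side by side. All 6 root markers were detected in every library, with a summed level of 80.1 to 182 FPKM. Of these 6, 0 were called in any comparison, but some differed without overlap between groups. *EXPA7*, a root-hair expansin, and *COBL9*, a root-hair wall protein, were higher without overlap in OX than in WT control roots (log2 fold change of FPKM + 0.5 by limma, 1.37, SE 0.41, and 1.063, SE 0.32) and lower without overlap with Al in OX roots (-1.63, SE 0.41, and -1.05, SE 0.32). With Al in WT roots *COBL9* was higher without overlap (0.80, SE 0.32), and *SCR*, an endodermis regulator, was lower without overlap in OX Al roots than in either OX control (-0.25, SE 0.16) or WT Al roots (-0.33, SE 0.16). The part of these cell types in the differences between GSTs was not tested. The summed level of 6 green-tissue markers was 11.9 to 43.2 FPKM in 9 libraries and higher in WT control replicate 1 (134 FPKM), WT Al replicate 2 (229 FPKM) and WT Al replicate 3 (178 FPKM). The summed level of 5 Al-inducible genes was 949 to 1320 FPKM with Al and 703 to 936 FPKM in control, apart from the control libraries numbered 1, which had 455 FPKM in WT and 421 FPKM in OX. Much of this sum was *GDH2*, with 374 to 812 FPKM. With Al 3 of the 5 were higher without overlap in WT (8.25% of all tested genes) and 4 in OX roots (9.11%). *MATE* and *ALS3* overlapped in WT and *GDH2* in OX roots. The transgene itself was not analysed here. In roots as a whole, fewer cells of a type and less RNA per cell cannot be told apart.

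The phi genes *GSTF10* and *GSTF9* were the most abundant GSTs in every group. *GSTF10*, known as an early dehydration-responsive gene, had 466, 603 and 799 FPKM in WT control, 696, 545 and 651 FPKM in OX control, 618.3, 399.8 and 646 FPKM in WT Al and 628, 607 and 630 FPKM in OX Al libraries. Its tandem neighbour *GSTF9* had 441, 574 and 738 FPKM in WT control, 664, 562 and 553 FPKM in OX control, 691, 335 and 708 FPKM in WT Al and 555, 669 and 664 FPKM in OX Al libraries. For both genes the 4 groups overlapped, and WT Al replicate 2 was the lowest library. Together they made up 44.2% to 60.6% of the summed FPKM of all 39 genes. The ratio of *GSTF9* to *GSTF10* stayed between 0.837 and 1.12 over the 12 libraries, although each gene had an SD of 135 to 211 FPKM in WT Al roots.

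**Figure D1:**
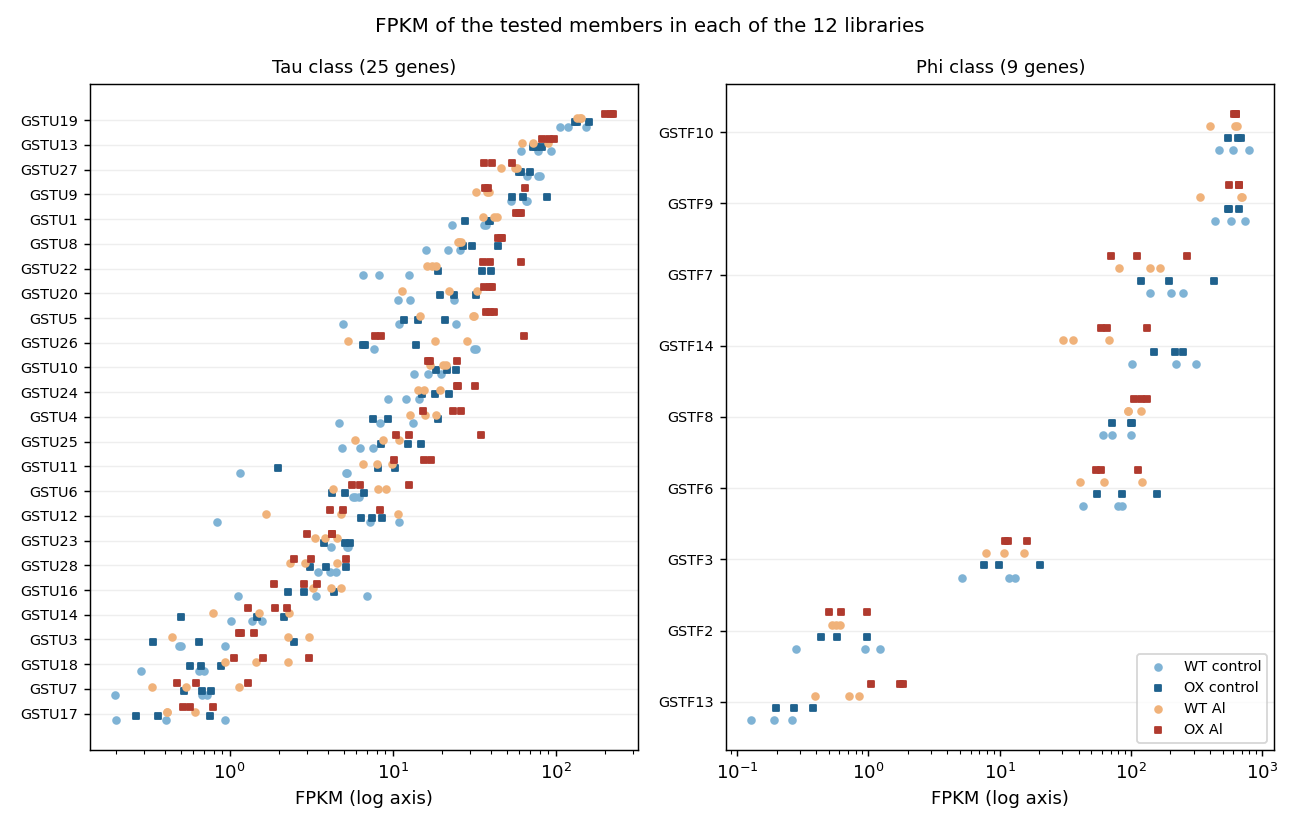
FPKM (log axis) of the 25 tau and 9 phi genes that passed the filter, 1 point per library, coloured by group. The genes are ordered by their mean over the 12 libraries, from GSTU17 at 0.521 FPKM to GSTU19 at 156 FPKM among tau genes and from GSTF13 at 0.668 FPKM to GSTF10 at 607.5 FPKM among phi genes.

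The next in order were *GSTF7* (mean 181 FPKM over the 12 libraries), *GSTU19* (156 FPKM), *GSTF14* (137 FPKM), *GSTF8* (97.8 FPKM), *GSTU13* (80.1 FPKM) and *GSTF6* (79.8 FPKM). The ranges of these neighbours overlapped. *GSTF8* is a much used marker of early stress responses, and *GSTF6* takes part in camalexin synthesis. *GSTU19* is the most abundant tau enzyme of the plant and active on the model substrate CDNB. Then came *GSTU27* (59.0 FPKM) and *GSTU9* (53.4 FPKM), and 17 other tested genes had a mean between 3.45 and 41.9 FPKM. The remaining tested genes, *GSTU14*, *GSTU3*, *GSTU18*, *GSTF2*, *GSTF13*, *GSTU7* and *GSTU17*, averaged 0.521 to 1.51 FPKM. Below the filter were *GSTU15*, *GSTU21*, *GSTF4*, *GSTF5* and *GSTF12*, the last being the anthocyanin carrier *TT19*. These 5 genes had 0 to 7 fragments in each library and were not tested. *GSTU21* was at 0 in all 3 WT Al libraries and above 0 in the other 9, with 0.129 to 0.397 FPKM in WT control, 0.136 to 0.466 FPKM in OX control and 0.0679 to 0.334 FPKM in OX Al roots, so WT Al did not overlap the other groups.

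Summed over the tau class, OX roots had more GST mRNA than WT roots in either treatment, and the libraries did not overlap. The 27 tau genes added up to 522, 522 and 560 FPKM in WT control and to 612, 584 and 613 FPKM in OX control libraries. With Al the sums were 564, 512 and 580 FPKM for WT and 826, 749 and 779 FPKM for OX libraries. The OX Al libraries were thus the highest of all, and the WT libraries of both treatments overlapped. The 12 phi genes added up to 1401 to 2102 FPKM in WT control, 1708 to 2209 FPKM in OX control, 1077 to 1817 FPKM in WT Al and 1604 to 1851 FPKM in OX Al roots, with overlap between all groups. *GSTU19*, *GSTU13*, *GSTU27* and *GSTU9* made up 60.1% to 68.3% of the tau sum in WT control and 46.8% to 52.7% in OX Al libraries. The sums are given as a description, since a few abundant genes set them.

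**Figure D2:**
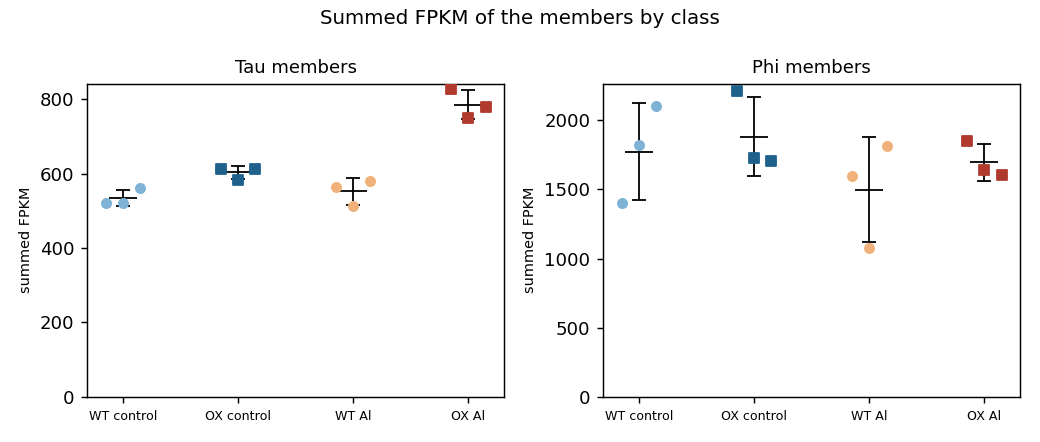
Summed FPKM of the tau and the phi genes, 1 point per library, with the mean and SD of each group (3 libraries). The tau sums of OX Al roots (749 to 826 FPKM) lie above all other libraries, and the phi sums of the 4 groups overlap.

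To see which GSTs differed with the *GmNTL4* transgene, OX and WT roots were compared in each treatment on the log2(FPKM + 0.5) scale with limma, over 20773 genes. On this scale the differences of genes with low FPKM are understated. Calls required a difference of 1 or more in size on the log2 scale, with a Benjamini-Hochberg adjusted p not above 0.05. Under Al, 0 of 34 GSTs were called higher (0.0289% of all tested genes) and 0 lower (0.00963%), while 8 of 34 had an unadjusted p under 0.05 (10.8% of all tested genes). In control, 0 were called higher (0.0337%) and 0 lower (0.00963%), and 3 of 34 had an unadjusted p under 0.05 (4.71%). Limma voom on recovered fragments also called 0 GSTs in both. The direction was mostly upward. Under Al 29 of 34 GSTs were higher in OX, with a median log2 fold change of 0.21, against 44.8% of all tested genes with a median of -0.03. In control 25 of 34 were higher, with a median of 0.17, against 48.5% of all tested genes with a median of -0.01.

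For 9 of 34 GSTs the 3 OX libraries under Al were all above the 3 WT libraries, which held for 8.77% of all tested genes. These were *GSTU1*, *GSTU5*, *GSTU8*, *GSTU11*, *GSTU19*, *GSTU20*, *GSTU22*, *GSTU24* and *GSTF13*. For 0 of 34 they were all below, against 10.8% of all tested genes. In control the groups did not overlap, with OX higher, for 4 of 34 (3.93% of all tested genes), *GSTU8*, *GSTU22*, *GSTU24* and *GSTU25*, and with OX lower for 0 of 34 (3.91%). The treatments share no library. *GSTU8*, *GSTU22* and *GSTU24* had no overlap in both, 3 of 34 against 0.611% of all tested genes, and 0 of 34 were lower in both (0.515%). The green-tissue markers were higher in 2 of 3 WT Al libraries, and their part in these differences was not tested. With WT Al replicate 1, 2 or 3 left out, the count of GSTs higher without overlap under Al was 12, 10 or 11 (11.7%, 14.8% and 13.5% of all tested genes). The count lower was then 2 (*GSTU3* and *GSTU16*, 15.8%), 2 (*GSTU27* and *GSTF9*, 22.4%) or 0 (15.1%). Without the control libraries numbered 1, in control 8 of 34 were higher (19.7%) and 2 lower (*GSTU13* and *GSTF9*, 17.2%).

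The largest genotype difference was that of *GSTU22* (AT1G78340), a tau gene of the cluster that also holds *GSTU19*. It had 12.7, 8.30 and 6.60 FPKM in WT control and 39.9, 18.95 and 35.3 FPKM in OX control libraries. Under Al the values were 17.3, 16.2 and 18.5 FPKM for WT and 60.9, 39.8 and 35.7 FPKM for OX libraries. All 6 OX libraries were above all 6 WT libraries. The mean was 3.41 times higher in OX in control (1.70 on the log2 scale, SE 0.30, adjusted p = 0.181, limma) and 2.62 times higher under Al (1.33, SE 0.30, adjusted p = 0.248, limma). Averaged over both treatments, a comparison added after the values were seen, *GSTU22* was called higher in OX (log2 fold change 1.51, SE 0.21, adjusted p = 0.0154, limma), 1 of 34 GSTs against 0.0867% of all tested genes, with 0 called lower (0.0193%) and 9 of 34 at an unadjusted p under 0.05 (9.68%). The adjusted p of this call rose above 0.05 without OX control replicate 3 (0.0571), WT Al replicate 1 (0.0506) or WT Al replicate 2 (0.0545), and without all libraries numbered 2 (0.148) or 3 (0.464), while the log2 fold change stayed between 1.40 and 1.67 over all alternatives. In control alone it was called with OX control replicate 2 left out (2.02, adjusted p = 0.0458, limma).

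The DNA just upstream of *GSTU22* is shown because it holds a TGACG motif and a stretch that recurs upstream of *GSTU24*. In each treatment the OX libraries of *GSTU24* were above the WT libraries of the same treatment, but they overlapped across treatments. The 250 bases before the annotated gene start of *GSTU22*, on the minus strand of chromosome 1 (chr1:29474004-29474253, TAIR10.1, RefSeq), overlap no other annotated gene. Capitals mark TGACG and, after it, the shared stretch.
GSTU22: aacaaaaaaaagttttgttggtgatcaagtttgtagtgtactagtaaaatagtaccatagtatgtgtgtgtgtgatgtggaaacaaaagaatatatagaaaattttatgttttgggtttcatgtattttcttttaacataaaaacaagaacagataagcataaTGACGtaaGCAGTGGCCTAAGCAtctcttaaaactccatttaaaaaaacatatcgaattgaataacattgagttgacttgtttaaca
The window of *GSTU25* (plus strand, chr1:5871774-5872023, TAIR10.1), a neighbour of *GSTU24* that was also higher in OX roots, has its TGACG in capitals.
GSTU25: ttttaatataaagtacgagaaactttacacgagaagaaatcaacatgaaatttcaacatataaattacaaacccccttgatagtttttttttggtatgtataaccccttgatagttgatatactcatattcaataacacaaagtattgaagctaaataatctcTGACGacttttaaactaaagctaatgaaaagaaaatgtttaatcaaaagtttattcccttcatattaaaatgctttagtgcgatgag
In both windows TGACG starts 87 bases before the gene start, while that of *GSTU24* starts 169 bases before its gene start. The 30 bases around the shared stretch lie at chr1:29474064-29474093 (minus strand) for *GSTU22* and at chr1:5869371-5869400 (plus strand) for *GSTU24*, with TGACG and the stretch in capitals.
GSTU22 site: taaTGACGtaaGCAGTGGCCTAAGCAtctc
GSTU24 site: tgcTGACGcagGCAGTGGCCTAAGCAacta
The stretch is 15 bases long, lies 3 bases after TGACG in both genes and occurs 2 times in the genome. The *GSTU24* copy starts 161 bases before the gene start, and the 30 bases printed around it overlap the annotated neighbouring gene AT1G17160. The *GSTU22* copy starts 79 bases before the gene start. The shared stretch was found after the values were seen, by taking the longest run shared between the windows of each pair of GSTs. Other pairs share runs of like length, 16 bases for *GSTU3* and *GSTU11*, 15 for *GSTF6* and *GSTF7* and 14 for 3 further pairs, and this one is shown only because both of its genes were higher in OX roots. The window of *GSTU25* does not hold it.

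TGACG was searched on both strands of the same 250-base window before every gene, together with TTGAC, the core of the W-box bound by WRKY factors, and CATGT, a NAC motif named in the study. TGACG was in the window of 14 of 41 GSTs (34.1%), against 18.6% of 27443 genes. TTGAC was in 24 of 41 (58.5%), against 44.9%, and CATGT in 15 of 41 (36.6%), against 34.8%. TTGAC and TGACG overlap where TTGACG occurs. Of the 9 GSTs without overlap under Al, 5 had TGACG in the window (*GSTU1*, *GSTU5*, *GSTU11*, *GSTU22* and *GSTU24*). The windows of *GSTU5* and *GSTU24* overlap another annotated gene, AT2G29452 and AT1G17160. TGACG was also in the windows of *GSTU3*, *GSTU6*, *GSTU7*, *GSTU9*, *GSTU25*, *GSTU27*, *GSTF3*, *GSTF8* and *GSTF10*. *GSTU8* had none of these motifs in its window, nor had *GSTF13*. A match shows only that the letters are present.

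*GSTU8* (AT3G09270) was also higher in all 3 OX libraries than in the 3 WT libraries of the same treatment. It had 25.7, 22.0 and 16.03 FPKM in WT control and 44.0, 27.1 and 30.7 FPKM in OX control libraries. Under Al the values were 25.1, 25.4 and 26.5 FPKM for WT and 46.1, 44.3 and 46.8 FPKM for OX libraries. The groups did not overlap in either treatment, and the 3 libraries of each Al group lay close together. The mean was 1.78 times higher under Al (0.82 on the log2 scale, SE 0.18, adjusted p = 0.248, limma) and 1.60 times higher in control (0.66, SE 0.18, adjusted p = 0.564, limma).

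*GSTU24* and *GSTU25*, whose enzymes are known to conjugate the explosive TNT, lie next to each other on chromosome 1. *GSTU24* (AT1G17170) had 12.2, 14.5 and 9.34 FPKM in WT control, 18.3, 15.2 and 22.1 FPKM in OX control, 14.4, 15.6 and 19.5 FPKM in WT Al and 31.8, 25.02 and 24.99 FPKM in OX Al libraries. *GSTU25* (AT1G17180) had 4.93, 7.55 and 6.32 FPKM in WT control, 14.9, 8.46 and 12.4 FPKM in OX control, 10.96, 5.86 and 8.67 FPKM in WT Al and 35.0, 10.5 and 12.6 FPKM in OX Al libraries. *GSTU24* did not overlap between genotypes in either treatment, whereas *GSTU25* overlapped under Al, where OX Al replicate 1 was far above the rest. Under Al the log2 fold change reached 0.71 (SE 0.19, adjusted p = 0.301, limma) for *GSTU24* and 0.98 (SE 0.40, adjusted p = 0.427, limma) for *GSTU25*. In control it was 0.61 (SE 0.19) and 0.86 (SE 0.40). The third gene of this cluster, *GSTU26*, overlapped between genotypes in both treatments and is described further on.

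Among the neighbours of *GSTU22*, *GSTU19* and *GSTU20* were higher in OX roots under Al and *GSTU23* was not. *GSTU19* (AT1G78380) had 107, 120 and 155 FPKM in WT control, 131, 136 and 160 FPKM in OX control, 143, 141 and 136 FPKM in WT Al and 226, 218 and 200 FPKM in OX Al libraries. The OX Al libraries were above all others, and the other 3 groups overlapped (OX against WT under Al, log2 fold change 0.61, SE 0.14, adjusted p = 0.248, limma). *GSTU20* (AT1G78370), whose protein is known to interact with the jasmonate-conjugating enzyme JAR1, had 10.7, 12.8 and 23.7 FPKM in WT control, 19.5, 23.7 and 32.6 FPKM in OX control, 33.0, 11.4 and 22.2 FPKM in WT Al and 36.6, 39.4 and 40.8 FPKM in OX Al libraries. Under Al its groups did not overlap, although WT Al replicate 1 came near the OX libraries (log2 fold change 0.92, SE 0.36, adjusted p = 0.420, limma). In control they overlapped (0.72, SE 0.36). *GSTU23* had a log2 fold change of -0.03 (SE 0.19) under Al and -0.04 (SE 0.19) in control, and *GSTU21* was below the filter.

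*GSTU1* (AT2G29490), at the end of the cluster of *GSTU1* to *GSTU7* on chromosome 2, had 23.1, 37.3 and 36.2 FPKM in WT control, 27.9, 39.3 and 39.3 FPKM in OX control, 43.6, 42.0 and 35.6 FPKM in WT Al and 59.3, 61.4 and 57.4 FPKM in OX Al libraries. The OX Al libraries stood above the other 9 (OX against WT under Al, log2 fold change 0.55, SE 0.19, adjusted p = 0.378, limma). Its neighbour *GSTU5* (AT2G29450), known as an auxin-inducible gene, had 24.5, 10.9 and 4.96 FPKM in WT control, 14.4, 20.9 and 11.7 FPKM in OX control, 31.5, 31.1 and 14.7 FPKM in WT Al and 37.6, 41.8 and 39.8 FPKM in OX Al libraries. Here too the OX Al libraries were the highest, but WT libraries of the same group differed widely (0.70, SE 0.46, adjusted p = 0.596, limma). *GSTU11* (AT1G69930) had 5.15, 5.28 and 1.16 FPKM in WT control, 1.99, 10.4 and 8.16 FPKM in OX control, 6.63, 8.04 and 9.91 FPKM in WT Al and 10.3, 15.5 and 17.1 FPKM in OX Al libraries. The lowest OX Al library was just above the highest WT Al library (0.75, SE 0.56, adjusted p = 0.639, limma).

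**Figure D3:**
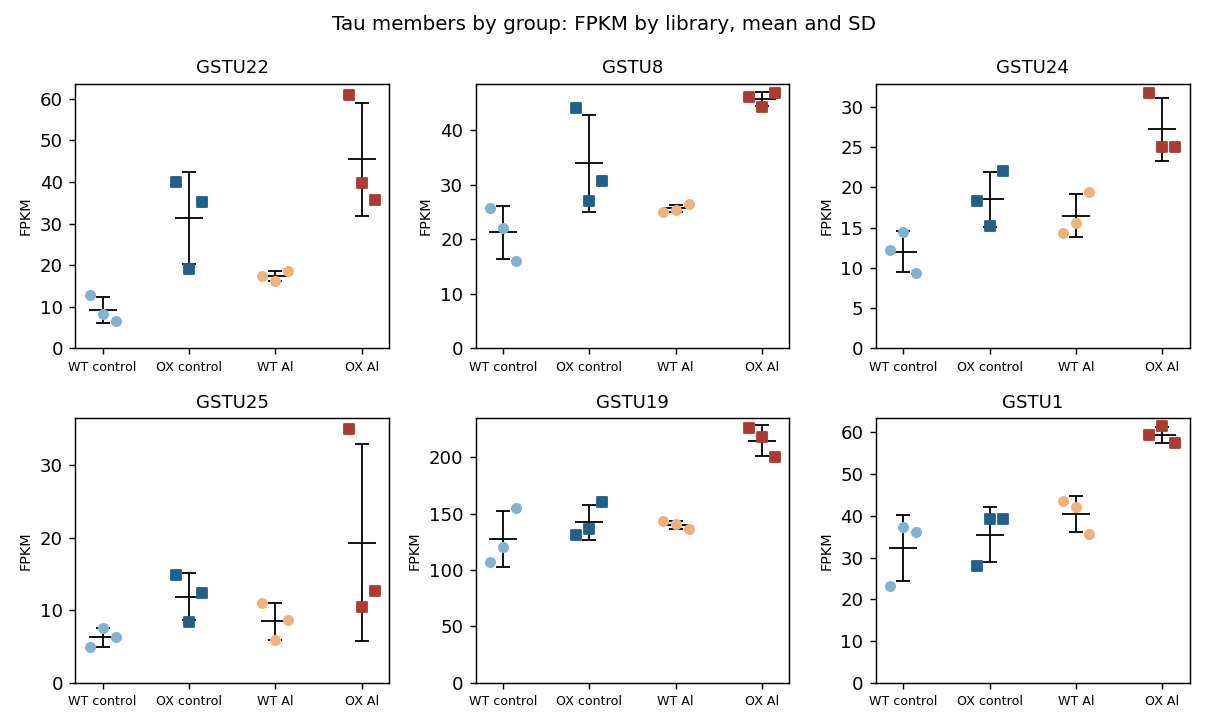
FPKM of 6 tau genes, 1 point per library, with the mean and SD of each group (3 libraries). For GSTU22 all 6 OX libraries (18.95 to 60.9 FPKM) are above all 6 WT libraries (6.60 to 18.5 FPKM), and for GSTU19 and GSTU1 the OX Al libraries stand apart from the other 9.

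Fewer GSTs were lower in OX roots, and with all libraries kept 0 of 34 were lower without overlap in either treatment. The lowest log2 fold change was that of *GSTU26* in control (-1.18, SE 0.84), where the genotypes overlapped. Under Al that of *GSTU26* was 0.20 (SE 0.84). *GSTU27* (AT3G43800) had 78.2, 67.0 and 80.7 FPKM in WT control, 61.2, 70.1 and 59.3 FPKM in OX control, 57.6, 46.4 and 56.4 FPKM in WT Al and 53.8, 40.97 and 36.6 FPKM in OX Al libraries. The genotypes overlapped in both treatments (log2 fold change -0.30, SE 0.15, under Al and -0.24, SE 0.15, in control). *GSTU16* (AT1G59700) had 6.97, 3.38 and 1.12 FPKM in WT control, 2.28, 4.35 and 2.84 FPKM in OX control, 3.23, 4.18 and 4.82 FPKM in WT Al and 3.43, 2.85 and 1.88 FPKM in OX Al libraries. Its log2 fold change under Al was the lowest of the 34 (-0.52, SE 0.45), but the groups overlapped.

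*GSTU3*, *GSTU6* and *GSTU12* varied between replicates more than between genotypes. *GSTU3* (AT2G29470) had 0.934, 0.491 and 0.504 FPKM in WT control, 0.653, 2.48 and 0.338 FPKM in OX control, 0.444, 2.28 and 3.05 FPKM in WT Al and 1.18, 1.15 and 1.41 FPKM in OX Al libraries. *GSTU6* (AT2G29440) had 5.74, 5.88 and 6.26 FPKM in WT control, 4.25, 6.64 and 5.11 FPKM in OX control, 8.13, 4.28 and 9.11 FPKM in WT Al and 5.61, 6.28 and 12.6 FPKM in OX Al libraries. The 4 groups of *GSTU6* overlapped. *GSTU3* overlapped between genotypes in each treatment and between treatments in each genotype, while its OX Al libraries were all above its WT control libraries. *GSTU12* (AT1G69920) had 7.22, 10.97 and 0.837 FPKM in WT control, 8.55, 7.52 and 6.44 FPKM in OX control, 1.66, 4.80 and 10.7 FPKM in WT Al and 8.35, 4.11 and 4.95 FPKM in OX Al libraries, again with overlap of all groups.

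**Figure D4:**
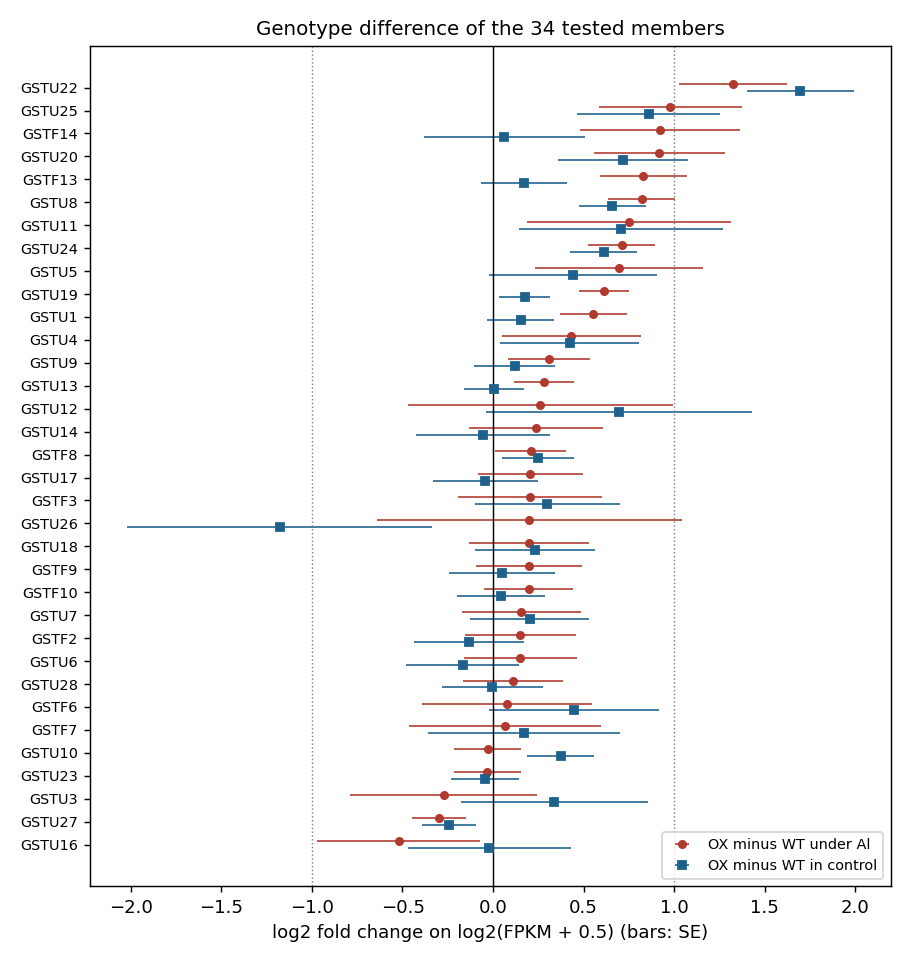
Log2 fold change of OX minus WT on the log2(FPKM + 0.5) scale for the 34 tested GSTs, under Al and in control, with the SE of each as a bar. Dotted lines mark 1 in size, and most points lie to the right of 0, with GSTU22 farthest at 1.33 under Al and 1.70 in control.

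To see which GSTs respond to Al, control and Al roots were compared within each genotype. In WT roots 0 of 34 GSTs were called higher (0.164% of all tested genes) and 0 lower (0.168%), and limma voom on recovered fragments also called 0. An unadjusted p under 0.05 was found for 10 of 34 (12.5% of all tested genes). Every Al library was above every control library for 4 of 34 (8.25% of all tested genes), *GSTU11*, *GSTU18*, *GSTU22* and *GSTF13*, and below for 3 of 34 (8.17%), *GSTU9*, *GSTU27* and *GSTF14*. With WT Al replicate 1, 2 or 3 left out, 7, 6 or 7 of 34 were higher (11.8%, 17.6% and 12.7% of all tested genes) and 4, 3 or 5 lower (10.8%, 12.5% and 13.5%), and without the control libraries numbered 1 these counts were 7 (17.2%) and 4 (17.6%). In OX roots 1 of 34 was called higher, *GSTF13* (0.284% of all tested genes), and 0 lower (0.578%), while 11 of 34 had an unadjusted p under 0.05 (13.7%). No overlap was found, with Al higher, for 10 of 34 (9.11% of all tested genes), *GSTU1*, *GSTU5*, *GSTU8*, *GSTU13*, *GSTU18*, *GSTU19*, *GSTU20*, *GSTU24*, *GSTF8* and *GSTF13*. With Al lower it was found for 2 of 34 (11.4%), *GSTU27* and *GSTF14*. The comparisons within WT and OX share no library. *GSTU18* and *GSTF13* were higher without overlap in both genotypes, 2 of 34 against 2.11% of all tested genes, and *GSTU27* and *GSTF14* lower in both, 2 of 34 against 2.89%. By direction alone, 23 of 34 GSTs were higher with Al in WT roots (median log2 fold change 0.18), against 52.4% of all tested genes (0.01). In OX roots 23 of 34 were higher as well (0.28), against 48.1% (-0.01).

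*GSTF14* (AT1G49860), a phi gene with high root expression, showed the largest difference with Al on the log2 scale in WT roots and over both genotypes. Within OX roots those of *GSTF13* (1.37) and *GSTU5* (1.35) were larger in size. It had 102, 220 and 315 FPKM in WT control and 36.0, 30.4 and 68.4 FPKM in WT Al libraries. In OX it had 151, 217 and 247 FPKM in control and 133, 59.3 and 65.7 FPKM with Al. All 6 control libraries but WT control replicate 1 were above all Al libraries, and that library was above all WT Al libraries. The control mean was 4.72 times the Al mean in WT (-2.17 on the log2 scale, SE 0.44, adjusted p = 0.0696, limma) and 2.38 times in OX roots (-1.31, SE 0.44, adjusted p = 0.201, limma). Averaged over both genotypes, again a comparison added after the values were seen, *GSTF14* fell with Al (-1.74, SE 0.31, adjusted p = 0.0103, limma), 1 of 34 against 0.775% of all tested genes called lower. This call was lost without the libraries numbered 2 (adjusted p = 0.286, limma) or 3 (0.119). Within WT roots the fall was called with WT control replicate 1 left out (-2.63, adjusted p = 0.0395, limma), without both control libraries numbered 1 (0.0346), without all libraries numbered 1 (0.0196) and with OX Al replicate 1 left out, which changes only the spread (0.0345).

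*GSTF13* (AT3G62760), a phi gene of low level, was the GST called higher with Al. Its 6 control libraries were all below the 0.5 FPKM of the filter, so it was tested only through its Al libraries, where it was high, and its call and its place in the counts above are a description. It had 0.128, 0.191 and 0.261 FPKM in WT control and 0.843, 0.389 and 0.713 FPKM in WT Al libraries. In OX it had 0.381, 0.270 and 0.197 FPKM in control and 1.05, 1.74 and 1.85 FPKM with Al. The Al libraries were above the control libraries in both genotypes, and those of OX Al were the highest. In OX roots the mean was 5.47 times higher with Al (1.37 on the log2 scale, SE 0.24, adjusted p = 0.0256, limma). In WT roots it was 0.71 (SE 0.24, adjusted p = 0.238, limma), and over both genotypes the log2 fold change of *GSTF13* was 1.04 (SE 0.17, adjusted p = 0.00644, limma), 1 of 34 against 0.876% of all tested genes (15 of 34 had an unadjusted p under 0.05, against 18.3%). These values rest on 2 to 28 fragments per library. The call within OX roots was lost with each OX control library left out (adjusted p 0.0669 to 0.0878), without OX Al replicate 2 (0.159) or OX Al replicate 3 (0.147), without both control libraries numbered 1 (0.0539), without all libraries numbered 2 (0.483) or 3 (0.467), in a fit to only the OX libraries (0.0749) and, by its fold change of 0.98, with a pseudocount of 1. Over both genotypes it was lost without the libraries numbered 2 (0.156) or 3 (0.168), and the log2 fold change was under 1 with a pseudocount of 1 (0.72), with quantile normalization (0.98) and without OX control replicate 3, WT Al replicate 1 or OX Al replicate 3 (0.98 to just under 1).

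*GSTU9* (AT5G62480) and *GSTU27* were lower with Al. *GSTU9* had 66.8, 65.8 and 53.4 FPKM in WT control and 32.4, 38.0 and 39.0 FPKM in WT Al libraries, and 88.9, 53.8 and 63.0 FPKM in OX control and 64.8, 38.2 and 37.0 FPKM in OX Al libraries. It did not overlap in WT roots (difference of -0.75 on the log2 scale, SE 0.23, adjusted p = 0.180, limma) and overlapped in OX roots through OX Al replicate 1 (-0.57, SE 0.23, adjusted p = 0.288, limma). For *GSTU27*, whose values are given above, the control libraries were above the Al libraries in WT (-0.49, SE 0.15, adjusted p = 0.182, limma) and in OX roots (-0.55, SE 0.15, adjusted p = 0.105, limma). Over both genotypes the adjusted p was 0.0176 for *GSTU27* (-0.52, SE 0.10) and 0.0391 for *GSTU9* (-0.66, SE 0.16), and both differences were under 1 in size, so neither was called.

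No tau gene was called with Al in either genotype, and *GSTU18* was the tau gene higher without overlap in both. *GSTU18* (AT1G10360) had 0.694, 0.287 and 0.648 FPKM in WT control and 0.936, 2.28 and 1.46 FPKM in WT Al libraries, and 0.573, 0.668 and 0.889 FPKM in OX control and 1.07, 3.08 and 1.60 FPKM in OX Al libraries. The groups did not overlap in either genotype (log2 fold change 0.95 in WT and 0.92 in OX, SE 0.33 each), and over both the adjusted p was 0.0450 (0.94, SE 0.23, limma). *GSTU18* rests on 5 to 51 fragments per library. *GSTU5*, with the values given above, had 1.10 in WT (SE 0.46, with overlap) and 1.35 in OX roots (SE 0.46, adjusted p = 0.207, limma, without overlap). *GSTU11* had 1.18 in WT (SE 0.56, without overlap) and 1.23 in OX roots (SE 0.56), where OX control replicate 2 overlapped the Al libraries. For *GSTU22* the difference with Al was 0.93 in WT roots (SE 0.30, adjusted p = 0.214, limma) and 0.56 in OX roots (SE 0.30), where the groups overlapped.

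In OX roots *GSTU19* and *GSTU1* had the smallest adjusted p after *GSTF13*. The log2 fold change with Al was 0.59 for *GSTU19* (SE 0.14, adjusted p = 0.0716, limma) and 0.75 for *GSTU1* (SE 0.19, adjusted p = 0.0786, limma). In WT roots these genes had 0.16 (SE 0.14) and 0.35 (SE 0.19), with overlap. Over both genotypes *GSTU1* had 0.55 (SE 0.13, adjusted p = 0.0364, limma), which was under 1 in size, so it was not called. The difference between genotypes in the Al response was tested as an interaction. *GSTU19* had the smallest p (0.44, SE 0.20, unadjusted p = 0.0492, adjusted p = 0.940, limma), and it was the 1 of 34 GSTs with an unadjusted p under 0.05, against 4.98% of all tested genes. Called were 0 of 34 GSTs and 0 of 20773 genes, and limma voom on recovered fragments also called 0. The largest interactions in size were those of *GSTU26* (1.38, SE 1.19), *GSTF14* (0.86, SE 0.63) and *GSTF13* (0.66, SE 0.34).

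**Figure D5:**
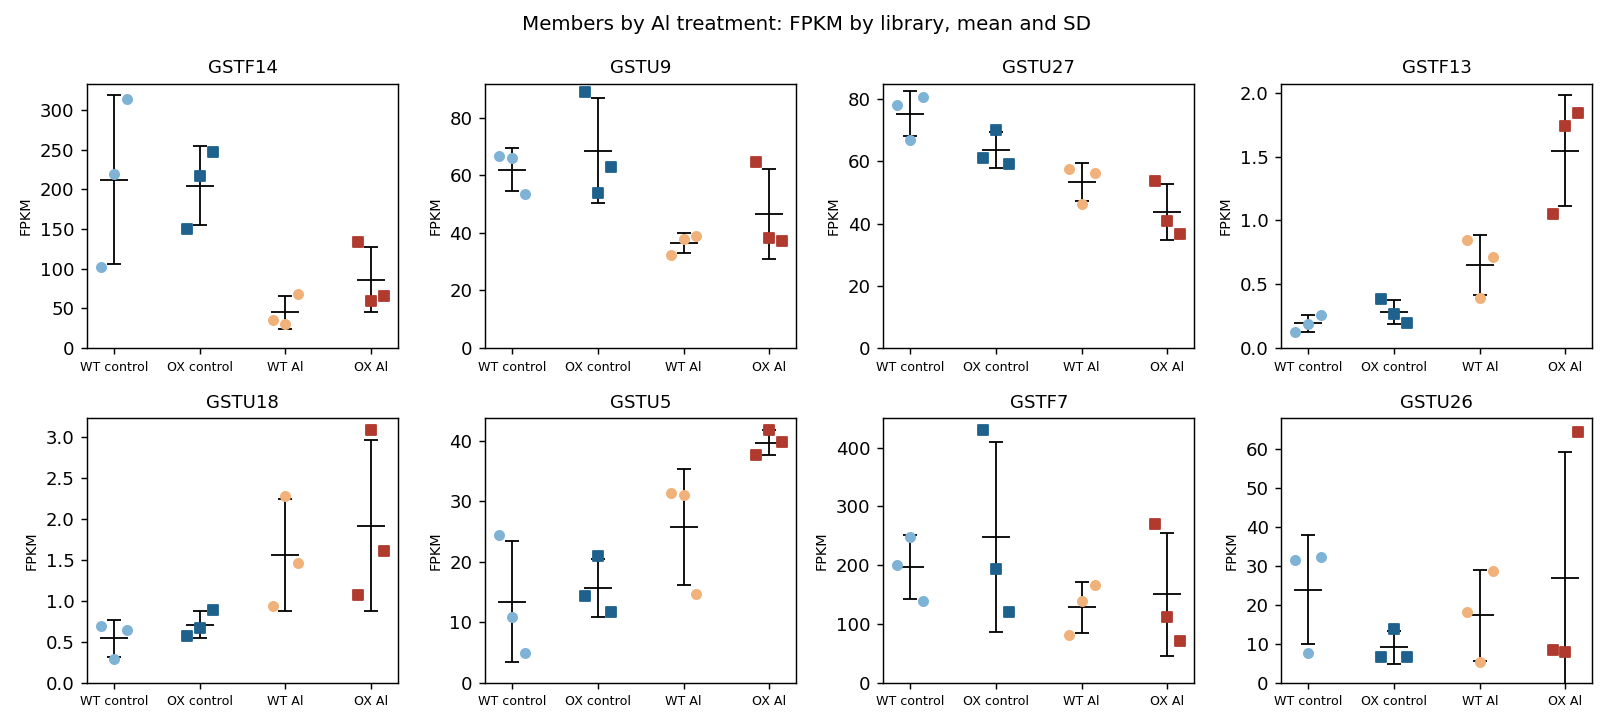
FPKM of 8 GSTs, 1 point per library, with the mean and SD of each group (3 libraries). The lower SD bar of GSTU26 in OX Al roots is cut at 0. GSTF14 and GSTU27 are lower and GSTF13 and GSTU18 higher with Al in both genotypes, while GSTF7 and GSTU26 spread widely within groups.

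*GSTF7* and *GSTF6* (AT1G02920 and AT1G02930), tandem phi genes known to respond to salicylate and pathogens, spread widely within every group. *GSTF7* had 201, 249 and 140 FPKM in WT control, 431, 194 and 120 FPKM in OX control, 80.7, 139 and 166 FPKM in WT Al and 269, 112 and 71.0 FPKM in OX Al libraries. *GSTF6* ranged from 40.9 FPKM in WT Al replicate 1 to 159 FPKM in OX control replicate 1. In both genes all groups overlapped, and OX control replicate 1 was the highest library. The ratio of *GSTF7* to *GSTF6* was 2.53, 2.88 and 3.25 in WT control, 2.72, 2.26 and 2.17 in OX control, 1.97, 2.24 and 1.37 in WT Al and 2.38, 1.89 and 1.32 in OX Al libraries. It was lower in each WT Al than in each WT control library, and overlapped in OX roots. Their coding sequences are 94.3% identical, and 1.81% of the exonic 100-base stretches of *GSTF6* and 1.76% of those of *GSTF7* occur elsewhere in the genome, so a small part of their reads could be assigned to either. No other GST had such stretches.

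*GSTU26* (AT1G17190) varied more between replicates than any other GST tested. It had 31.6, 7.69 and 32.3 FPKM in WT control, 6.74, 13.9 and 6.63 FPKM in OX control, 18.1, 5.36 and 28.7 FPKM in WT Al and 8.49, 7.80 and 64.3 FPKM in OX Al libraries. High and low libraries occurred in both treatments and genotypes, and the groups overlapped. Its residual SD on the log2 scale was 1.21, above that of 99.5% of all tested genes, and *GSTU12* came next with 1.05. At the other end *GSTU19* had 0.164. The median residual SD of the 34 GSTs was 0.416, against 0.221 for all tested genes, and for the GSTs and genes with a mean of at least 10 FPKM it was 0.374 against 0.172.

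The pathways around the GSTs were described from lists of their genes. Of 13 tested GSTs of other classes, 0 were called in any comparison. Under Al 9 of 13 were higher in OX than in WT roots (median log2 fold change 0.18) and 2 had an unadjusted p under 0.05, against 10.8% of all tested genes, with the smallest p for *DHAR2* (0.38, SE 0.14, adjusted p = 0.390, limma), a dehydroascorbate reductase, and *GSTZ2* (0.57, SE 0.21, adjusted p = 0.392, limma). *DHAR2*, *GSTZ2* and *GSTL1* were higher without overlap in OX under Al, 3 of 13 against 8.77% of all tested genes. Lower without overlap were 0 of 13 (10.8%). Of 7 genes of glutathione synthesis, reduction and plastid export, 0 were called, and under Al 0 had an unadjusted p under 0.05 between genotypes (10.8% of all tested genes). Only 1 of the 7 was higher in OX under Al (median -0.08), and the smallest p were those of the thiol transporter *CLT3* (-0.18, SE 0.13) and the glutathione reductase *GR2* (-0.08, SE 0.08).

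Of 11 genes that transport or break down glutathione and its conjugates, 1 was called higher with Al in OX roots (0.284% of all tested genes) and 0 lower (0.578%), and 3 had an unadjusted p under 0.05 (13.7%). Between genotypes under Al 0 were called, 4 were higher and 7 lower in OX (median log2 fold change -0.13), and 3 had an unadjusted p under 0.05 (10.8%). The gene called was *GGCT2;1* (AT5G26220), a cyclotransferase that degrades glutathione. Like *GSTF13* it was below 0.5 FPKM in every OX control library. It had 0.383, 0.101 and 0.396 FPKM in OX control and 3.16, 2.52 and 4.56 FPKM in OX Al libraries, and 0.821, 0.0959 and 0.344 FPKM in WT control and 0.830, 0.195 and 1.12 FPKM in WT Al libraries. The OX Al libraries were above all others (Al against control in OX, log2 fold change 2.29, SE 0.38, adjusted p = 0.0230, limma). OX against WT under Al it was 1.74 (SE 0.38, adjusted p = 0.248, limma). In that comparison *GGT4*, a transpeptidase that breaks down glutathione conjugates, and the oxoprolinase *OXP1* were lower without overlap (-0.24, SE 0.09, adjusted p = 0.403, and -0.32, SE 0.14, adjusted p = 0.447, limma). Of all tested genes 10.8% were lower without overlap. Of 7 glutathione peroxidase-like genes, 0 were called and 1 had an unadjusted p under 0.05 between genotypes under Al (10.8% of all tested genes). Without overlap *GPX2* (0.47, SE 0.15, adjusted p = 0.370, limma) and *GPX1* (0.10, SE 0.15) were higher in OX under Al (8.77% of all tested genes) and *GPX3* was lower (-0.22, SE 0.10, adjusted p = 0.482, limma; 10.8%).

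Genes that respond to electrophiles together with GSTs were mostly higher with Al and in OX roots. Of 7 such genes, 7 were higher with Al in WT (median log2 fold change 0.75, against 52.4% of all tested genes higher) and 6 in OX roots (0.74, against 48.1%). Between genotypes 6 were higher in OX than in WT roots in control (0.42, against 48.5%) and under Al (0.48, against 44.8%). *UGT74E2* was lower with Al in OX roots (-0.76, SE 0.65) and lower in OX than in WT under Al (-0.64, SE 0.65). An unadjusted p under 0.05 was found for 4 of 7 with Al in WT (12.5% of all tested genes) and in OX roots (13.7%), and for 2 of 7 between genotypes in control (4.71%) and under Al (10.8%). The 1 gene called was *OPR1*, higher with Al in OX roots (0.284% of all tested genes). *OPR1* (AT1G76680), an oxylipin reductase, rose with Al in OX roots from 14.7, 13.2 and 18.2 FPKM to 33.7, 30.1 and 39.0 FPKM (1.14, SE 0.20, adjusted p = 0.0263, limma). In WT it had 11.2, 8.85 and 10.97 FPKM in control and 17.1, 13.2 and 24.0 FPKM with Al, also without overlap (0.75, SE 0.20, adjusted p = 0.132, limma). Of 7 transcription factors known to act on GST genes or in such responses, *TGA2*, *TGA5* and *TGA6* among them, 0 were called, and 3 had an unadjusted p under 0.05 with Al in OX roots (13.7% of all tested genes). *NAC102* had the smallest p with Al in OX roots (0.58, SE 0.18, adjusted p = 0.161, limma), followed by *TGA5* (-0.23, SE 0.09, adjusted p = 0.296, limma).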

How the data were processed

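RNA-seq values of 12 Arabidopsis root libraries were used as deposited, in FPKM per gene. According to the methods, the authors aligned paired reads of 150 bp to TAIR10 with HISAT2 and the Ensembl annotation, counted them with HTSeq (0.6.0 in the submitters' processing notes) and converted the counts to FPKM. Libraries were grouped by their labels, which name no batch. In each gene the FPKM values were multiples of the value of 1 fragment, so whole numbers of fragments could be derived for 100% of 25872 genes. They are the smallest whole numbers in the ratios between libraries, so a factor common to all libraries of a gene would be missed. Of the gene lengths under 2000 bp that this implies, 98.8% were whole within 0.05 bp, and the libraries held 16162941 to 17136217 fragments.

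The filter kept 20773 genes that reached 0.5 FPKM in 3 or more libraries. Linear models of log2(FPKM + 0.5), with 1 mean per group, were fitted to all 12 libraries with limma 3.58.1 in R 4.3.3, with a variance trend and Benjamini-Hochberg adjustment over all genes kept, and were tested on simulated data. Comparisons were OX with WT in each treatment, Al with control in each genotype, and their interaction. Averages over both treatments or both genotypes were added after the values were seen. Alternatives were quantile normalization, pseudocounts of 0.1 and 1, a mean FPKM of 1 or more, no filter, a fit of only the 2 groups compared, median-ratio scaling, a block for the replicate number, no variance trend, adjusted p alone, limma voom on the recovered fragments, and leaving out libraries.

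Values by library are given for the GSTs called, the 5 most abundant, and up to 3 with the largest rise and fall in each comparison. *GSTU1*, *GSTU8*, *GSTU24* and *GSTF6* were named after their values were seen. Members and lists were chosen with earlier results of these data known. Gene positions and sequences are from TAIR10.1 (RefSeq), 250 bases before each gene start. Python 3.11.15 was used for tables (pandas 2.3.3, numpy 2.4.6) and plots (matplotlib 3.10.9).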

Additional observations from a re-analysis of the deposited data

How the results depend on the processing

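The counts of GSTs called changed under some alternatives. Within OX roots the count higher with Al was 1 and became 0 with a pseudocount of 1, with a mean FPKM of at least 1, with only the groups compared and without both control libraries numbered 1. It ranged from 0 to 1 over the fits that leave out libraries, as did the counts lower with Al within OX and within WT roots, higher in OX in control and higher in OX over both treatments. Within WT roots the count lower with Al was 1 without both control libraries numbered 1. Over both genotypes the count higher with Al was 1 and became 2 with a pseudocount of 0.1, with limma voom on recovered fragments and without both control libraries numbered 1, 3 with adjusted p alone and 0 with a pseudocount of 1, with a mean FPKM of at least 1 and with quantile normalization, and ranged from 0 to 3 with libraries left out. The count lower was 3 with adjusted p alone and 0 to 1 with libraries left out. Adjusted p alone drops the limit on fold size, and a mean FPKM of at least 1 removes *GSTF13* from the test. For the other settings the cause was not tested. Counts under Al between genotypes and in the interaction were 0 in every alternative.

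The replicate number as a block changed the count in 1 comparison, Al with control over both genotypes, from 1 to 2 higher. Between libraries that share a number, residuals had correlations of -0.247 to 0.286, so the numbers were not taken to pair the libraries.

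With libraries left out, signs reversed for *GSTU3* in OX against WT under Al (-0.85 to 0.11) and in the interaction for *GSTU3* (-1.49 to 0.26), *GSTU12* (-1.55 to 1.059) and *GSTU16* (-1.503 to 0.35). None of these was called. With limma voom over all genes, 39 were called higher and 92 lower with Al in OX roots (59 and 120 in the main fit), 19 and 27 in WT roots (34 and 35), 4 and 1 in OX against WT under Al (6 and 2) and 2 and 0 in control (7 and 2). With the block the counts in OX against WT were 3 and 1 under Al and 1 and 1 in control. Depth limits *GSTF13*, with 2 to 28 fragments per library, and the 5 genes below the filter. It also limits *GSTU7* (3 to 19 fragments), *GSTU17* (4 to 18), *GSTU18* (5 to 51), *GSTU3* (6 to 55), *GSTF2* (7 to 31) and *GSTU14* (8 to 38).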
